A study of Mus musculus with 4 samples.

Results

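The DNA methylation of 8 genes that mark microglia, the resident macrophages of the brain, was described in female offspring exposed to estriol (E3) before birth and in control offspring (CT). The genes were P2ry12, Itgam, Cx3cr1, Tmem119, Csf1r, Aif1, Trem2 and Tyrobp. Their CpG sites were chosen by position, from 1 kb before the transcription start to the gene end in the mm10 mouse genome, and sites of the hippocampus needed 5 or more reads in each library. By this rule 130 of 2226271 measured hippocampus CpG sites belonged to the 8 genes. In the frontal cortex, 1 of the 9731 CpG sites that were called as different carried the name of one of them. CD-1 mice are an outbred stock, and both groups of offspring were wild-type females of 8 weeks by their labels, although the study's text gives the brain expression data an age in months. Their mothers, 8 weeks old at mating, carried an Alzet pump for 7 days from gestation day 9, which held 50 µl of E3 at 0.46 mg/ml in DMSO, or DMSO alone for CT. Each tissue had 1 E3 library and 1 CT library, and neither the labels nor the methods say how many mice gave DNA to a library. Replicates are thus lacking, and each test sets 1 library against another rather than treatment against treatment.

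Microglia derive from yolk sac progenitors, depend on signalling through the CSF1 receptor, survey the tissue, take up debris and prune synapses. They are a minority of the cells in the hippocampus and the frontal cortex. Genes that define a cell type are commonly unmethylated near their start in that cell type and methylated elsewhere. The libraries were made from whole tissue, so a level is an average over all cell types, and a changed share of microglia and a changed level within a cell cannot be told apart. Methyl-MiniSeq cuts DNA with TaqαI and MspI and reads bisulfite-converted cytosines close to the cut sites, so it covers a small part of each gene. Of the CpGs in the gene windows, 22.6% were measured in Tmem119, 6.09% in Itgam, 5.13% in Trem2, 4.45% in Cx3cr1, 3.94% in Csf1r and 1.87% in P2ry12. None of the 70 CpGs in the window of Aif1 and none of the 45 in that of Tyrobp was measured, although these windows held 9 and 8 recognition sites of the enzymes. The median depth at the 130 sites was 30 reads in E3 and 8 reads in CT, close to the 27 and 9 over all CpG sites, so the CT value limits most comparisons.

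The stretches below lie just upstream of 4 of the genes and hold the upstream sites of their promoter results. The 6 promoter sites of Itgam and the 4 of Tmem119 that lie after the start are not shown. They are from the mm10 assembly (GRCm38.p6, RefSeq), run 5′ to 3′ on the strand of the gene, and show in capitals the CpGs that were measured in the hippocampus. None of them lies in an exon of the gene itself.
P2ry12, chr3:59263135-59263275, minus strand, 290 to 150 bases before the start: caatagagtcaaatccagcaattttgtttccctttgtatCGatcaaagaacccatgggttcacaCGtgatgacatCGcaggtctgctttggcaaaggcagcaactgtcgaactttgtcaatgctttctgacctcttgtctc
Cx3cr1, chr9:120069166-120069286, minus strand, 990 to 870 bases before the start: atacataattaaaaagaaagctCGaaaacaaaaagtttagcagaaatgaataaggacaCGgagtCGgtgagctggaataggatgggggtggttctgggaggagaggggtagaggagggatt
Itgam, chr7:128061730-128061920, plus strand, 910 to 720 bases before the start: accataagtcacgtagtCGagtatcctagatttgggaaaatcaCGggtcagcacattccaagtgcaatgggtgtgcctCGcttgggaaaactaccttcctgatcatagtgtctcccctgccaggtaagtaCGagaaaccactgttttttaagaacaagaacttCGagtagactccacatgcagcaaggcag
Tmem119, chr5:113800406-113800546, minus strand, 150 to 10 bases before the start: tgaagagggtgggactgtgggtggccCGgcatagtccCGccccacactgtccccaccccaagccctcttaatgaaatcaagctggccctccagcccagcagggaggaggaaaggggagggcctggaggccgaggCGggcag
The CpGs shown for P2ry12 also lie in a coding exon of Med12l, a gene on the opposite strand within which P2ry12 sits. Those of Cx3cr1 lie in an exon of the long noncoding RNA Gm33858, also on the opposite strand, and 4 of the 5 measured CpGs of Itgam touch the small pseudogene Gm22809.

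**Figure D1:**
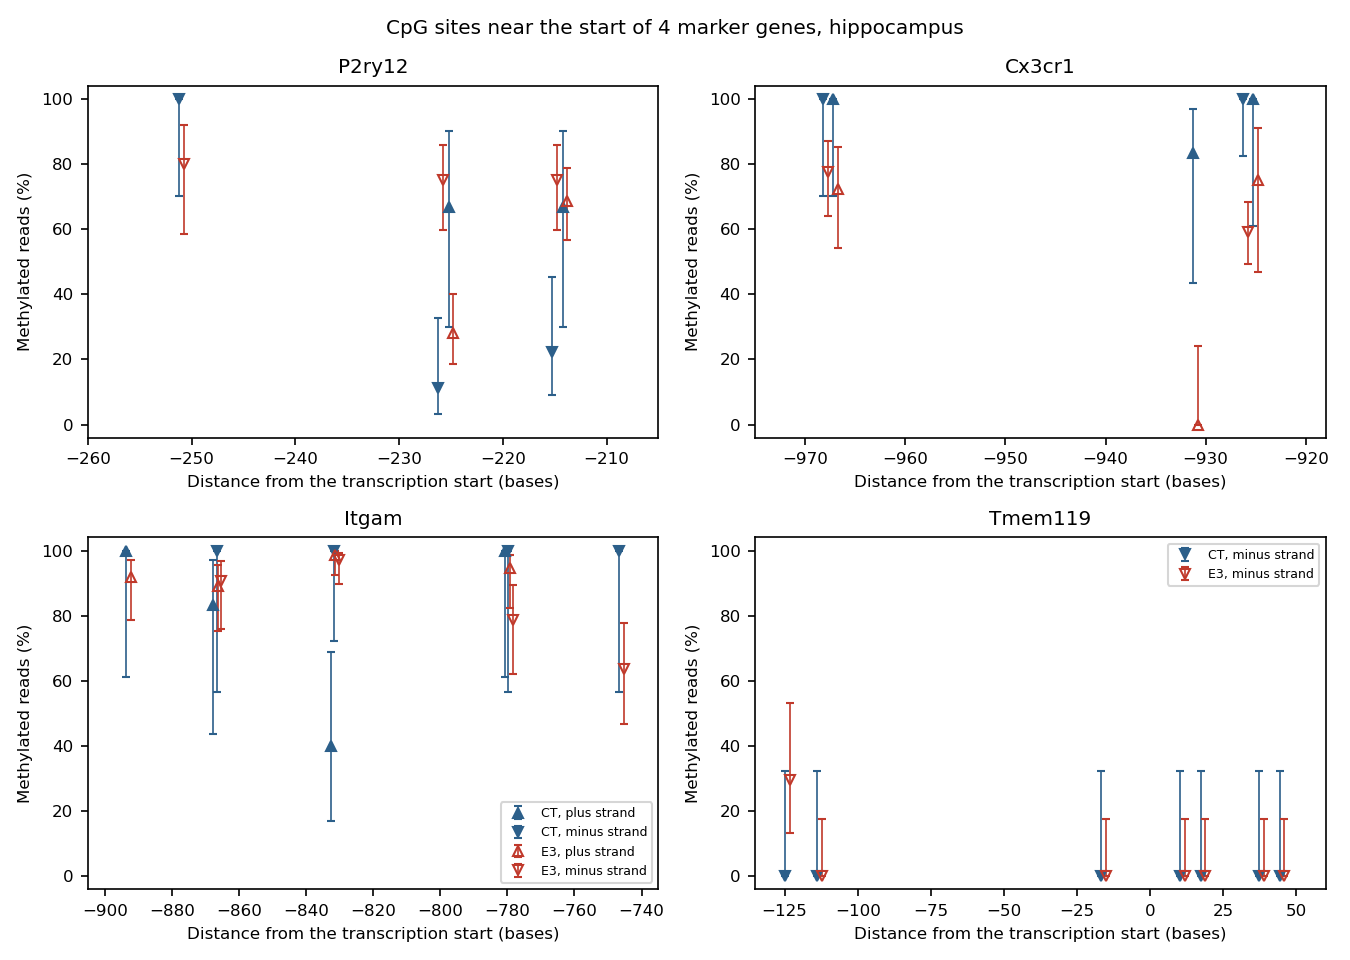
Methylated reads in percent at the CpG sites near the start of P2ry12, Cx3cr1, Itgam and Tmem119 in the hippocampus, against the distance from the transcription start in bases. Filled blue symbols are CT and open red symbols E3, upward triangles the plus strand and downward triangles the minus strand, and bars 95% Wilson intervals. The 5 sites of Cx3cr1 lie lower in E3, 2 minus strand sites of P2ry12 lie higher in E3, and 6 of the 7 sites of Tmem119 are at 0% in both libraries.

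P2ry12 encodes the purinergic receptor by which microglial processes sense ADP and ATP. It lies at chr3:59216271-59262985 on the minus strand and had 10 measured CpG sites. A site was called as different where the levels differed by at least 10 percentage points with an unadjusted p under 0.05 in a 2-sided Fisher's exact test on the reads. At 226 bases before the start, the E3 library had 75.0% methylated of 40 reads, with a 95% Wilson interval from 59.8 to 85.8%. CT had 11.1% of 18 reads, with an interval from 3.10 to 32.8%, and Fisher's exact test gave p = 7.1e-06. At 215 bases before the start, the levels were again 75.0% of 40 reads in E3 and 22.2% of 18 reads in CT, with p = 3.5e-04 by Fisher's exact test. Both are on the minus strand and have the same depths, so they may come from the same reads. The plus strand of the same CpGs did not follow. It had 28.1% of 64 reads in E3 and 66.7% of 6 reads in CT at the first CpG, a difference of the opposite sign that was not called (p = 0.0731, Fisher's exact test), and 68.8% and 66.7% at the second. At 251 bases before the start, E3 had 16 methylated of 20 reads and CT 9 of 9. The third called site was in an intron, 24910 bases after the start, with 100% of 41 reads in E3 and 66.7% of 9 reads in CT. The other 4 sites in the gene were between 90.0 and 100% in both libraries.

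Cx3cr1 encodes the receptor for fractalkine, the ligand that neurons present to microglia. The gene lies at chr9:120048683-120068296 on the minus strand and had 15 measured sites. All 5 sites upstream of its start were lower in E3, and 2 of these were called. At 931 bases before the start, none of 12 reads was methylated in E3 (0 to 24.2%) against 83.3% of the 6 CT reads (43.6 to 97.0%), with p = 7.0e-04 by Fisher's exact test. At 926 bases before it, E3 had 59.2% of 98 reads (49.3 to 68.4%) and CT 100% of 18 (82.4 to 100%, p = 2.8e-04, Fisher's exact test). The other strand of the second CpG went the same way, at 75.0% of 12 reads against 100% of 6, but was not called. The pair of sites 967 and 968 bases before the start was at 72.4 and 77.6% in E3 and at 100% in CT on both strands. Within the gene, the 10 sites lay in a coding exon and had a mean of 90.6% in E3 and 92.9% in CT. One of them, 16852 bases after the start, was called higher, at 100% of 22 reads in E3 against 66.7% of 6 reads in CT.

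Csf1r encodes the receptor for CSF1 and IL-34, which microglia need to survive. The gene lies at chr18:61105572-61131139 on the plus strand, and 16 sites were measured. The 2 called sites lay in coding exons and were higher in E3. At 4653 bases after the start, E3 had 94.7% of 38 reads (82.7 to 98.5%) and CT 33.3% of 9 (12.1 to 64.6%, p = 1.9e-04, Fisher's exact test). At 22350 bases after it, E3 had 92.3% of 26 reads (75.9 to 97.9%) and CT 12.5% of 8 (2.24 to 47.1%, p = 5.0e-05, Fisher's exact test). A neighbour at 22330 bases, read at the same depths of 26 and 8, went the other way without being called, with 80.8% in E3 and 100% in CT. Outside these called sites, levels of Csf1r ran from 71.4 to 100% in E3 and from 60.0 to 100% in CT.

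Tmem119 encodes a membrane protein that separates microglia from other macrophages of the brain. It lies at chr5:113793729-113800396 on the minus strand and was the most densely measured of the genes, with 48 sites. The 7 sites within 1 kb of its start lay between 124 bases before and 45 bases after it, with 17 or 18 reads in E3 and 8 reads in CT. At 6 of them no read was methylated in either library, and the seventh, the farthest upstream, had 29.4% of 17 reads in E3 and 0% in CT. The 41 other sites were between 1731 and 5193 bases after the start and had a mean of 88.9% in E3 and 93.0% in CT. The step from an unmethylated start to a methylated gene body was thus present in both libraries. In the gene body 4 sites were called, 2 in each direction. In an intron, 4402 bases after the start, E3 had 86.7% of 30 reads and CT 14.3% of 7 (p = 5.6e-04, Fisher's exact test), and at 4490 bases the levels were 92.9% of 28 and 50.0% of 6. At 1881 bases, also in an intron, E3 had 65.5% of 58 reads and CT 100% of 22 (p = 9.2e-04, Fisher's exact test). In a coding exon at 5193 bases, E3 had 30.4% of 23 reads and CT 100% of 5.

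Itgam encodes CD11b, the alpha chain of complement receptor 3, which binds tagged debris and synapses. It lies at chr7:128062640-128118491 on the plus strand and had 37 sites. The called site with the smallest p was 832 bases before the start, where the plus strand had 98.6% of 72 reads in E3 (92.5 to 99.8%) against 40.0% of the 10 CT reads (16.8 to 68.7%), with p = 4.0e-06 by Fisher's exact test. The minus strand of this CpG had 97.0% of 66 reads and 100% of 10 reads, so the difference was on 1 strand. The other 7 upstream sites ranged from 63.6 to 97.0% in E3 and from 83.3 to 100% in CT, and none was called. In the first part of the gene, the 6 sites from 642 to 730 bases after the start were each higher in E3 (71.0 to 96.8%) than in CT (44.4 to 77.8%), and again none was called. The 3 other called sites were in introns. At 5135 bases after the start, E3 had 56.7% of 30 reads and CT 100% of 13 (p = 0.00384, Fisher's exact test), and at 44169 bases E3 had 65.0% of 40 reads and CT 100% of 9. At 44197 bases the direction was opposite, with 100% of 20 reads in E3 and 40.0% of 5 in CT, so neighbours 28 bases apart differed in sign.

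Trem2 encodes a lipid-sensing receptor, and Tyrobp encodes DAP12, the adaptor through which TREM2 signals. Trem2, at chr17:48346401-48352276, had 4 sites, 2 in an intron and 2 in a coding exon. All 4 were at 100% in E3, with 7 to 22 reads, and in CT 3 were at 100% and 1 at 83.3% of 6 reads. Around the 2 coding exon sites, cytosines outside CpG within 100 bases on the same strand were also at 66.7% in CT. In E3 they were at 0.620 and 0.662%. No site of Trem2 was within 1 kb of its start. Tyrobp, at chr7:30413782-30417582, and Aif1, at chr17:35170986-35176083, which encodes the calcium-binding protein IBA1 of microglia and other macrophages, had no measured CpG site. Just outside the window of Aif1, the 9 sites within 2 kb of its start had 74.5% of 263 reads methylated in E3 and 78.1% of 105 reads in CT, and the difference was not called (adjusted p = 0.662, Fisher's exact test with Benjamini-Hochberg adjustment).

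**Figure D2:**
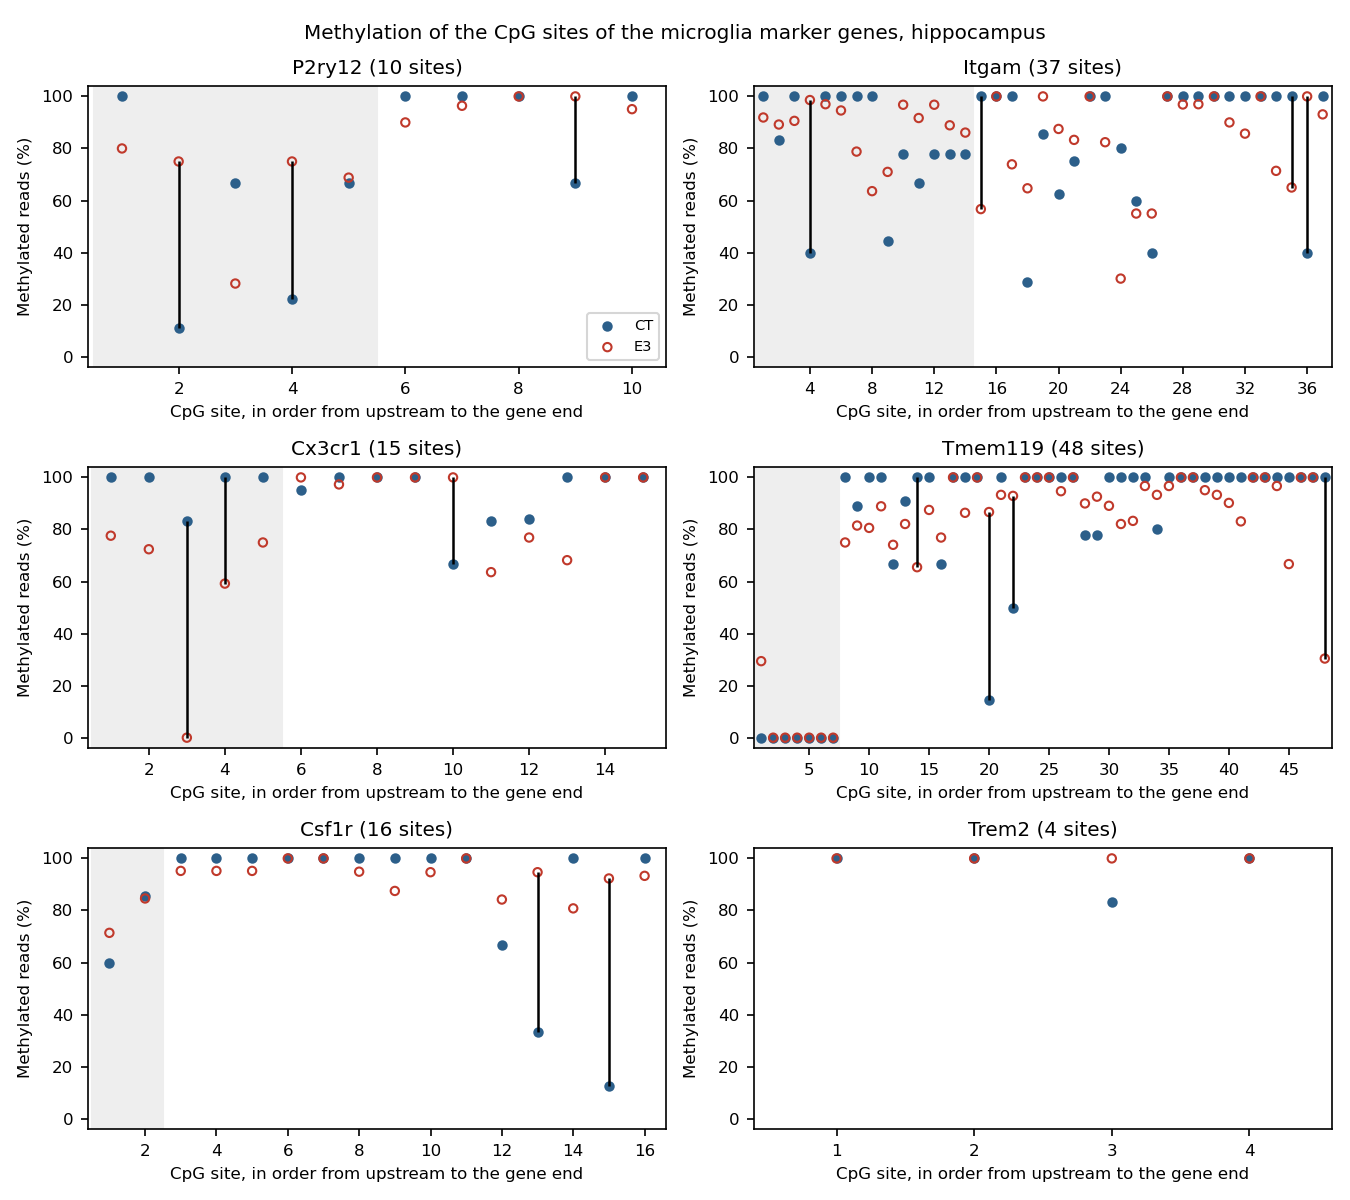
Methylated reads in percent at each of the 130 CpG sites of the 6 measured genes in the hippocampus, in order from upstream to the gene end. Filled blue points are CT, open red points E3, grey shading marks sites within 1 kb of the transcription start, and black lines join the 2 libraries at the 16 called sites. At 75 sites both libraries are at 80% or more, 6 sites at the start of Tmem119 are at 0% in both, and the called sites lie among neighbours that were not called.

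In all, 10 of the 130 sites were called higher and 6 lower in E3. This is 12.3% of the sites, against 11.0% of all measured CpG sites, of which 6.18% were called higher and 4.83% lower, so the share of the microglia genes was close to the background. Of the 6 measured genes, 5 had a called site, or 83.3%, against 86.9% of all protein-coding genes with a measured site. These had a median of 62 measured sites, and the microglia genes 4 to 48. The called differences ran from 33.3 to 83.3 points. Of the 16 called sites, 10 had under 10 reads in CT, against 38.4% of all called CpG sites. The median CT depth of the 130 sites, called or not, was 8 reads. After Benjamini-Hochberg adjustment over all CpG sites 9 remained called (Fisher's exact test), which is 6.92% of the 130 sites, against 3.35% of all sites. These 9 were 2 upstream sites of P2ry12, 2 of Cx3cr1 and 1 of Itgam, 2 intron sites of Tmem119 and 2 coding exon sites of Csf1r. Non-CpG cytosines within 100 bases on the same strand, whose methylation is usually low, were at 0 to 3.76% in E3 and at 0 to 5.02% in CT around the called sites. Around some sites that were not called they were higher. In CT they reached 66.7% in Trem2, 41.2% in P2ry12 and 40.5% in Itgam, and in E3 18.8% in Itgam. These sites are included in the means of their genes. The intervals cover counting error only, and only if each read is a separate molecule, while copies made by PCR are counted as reads. On the minus strand of P2ry12, depths in E3 and CT were 20 and 9 at 251 bases before the start. They were 40 and 18 at 226 and 215 bases. Those of Cx3cr1 were 49 and 9 at 968 bases and 98 and 18 at 926 bases. Whether molecules were counted more than once at a site was not tested. Where they were, the intervals are too narrow and the p-values too small.

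The mean level over the 130 sites was 82.0% in E3 and 83.2% in CT, well above the 50.8 and 50.9% over all CpG sites. At 57.7% of the sites both libraries were at 80% or more, against 33.5% of all sites, and at 4.62% both were under 20%, against 34.4%. Few sites of these genes thus lay in unmethylated DNA. E3 was below CT at 63 sites, above it at 33 and equal at 34, although more sites were called higher than lower. Of the 63 lower sites, 54 were at 100% in CT, a level that E3 could equal but not exceed. Over all sites, 34.9% were lower and 29.6% higher in E3. Both medians of the difference were 0. By annotation, the 57 intron sites had means of 89.5% in E3 and 88.2% in CT, the 46 coding exon sites 88.3 and 90.7%, and the 23 upstream sites 65.3 and 70.4%. The 4 sites in a 5′ UTR, all of Tmem119, were at 0%.

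Of the 105 CpGs behind the 130 sites, 25 were read on both strands. A CpG is normally methylated on both strands, so the strands give 2 readings of one CpG. At 6 of the 25 at least 1 strand was called, and at none of them were both strands called in the same direction. Over all CpGs read on both strands with a call, 8.81% were called on both in the same direction. When the reads of the strands were summed, 11 CpGs were called higher and 8 lower, or 18.1% of the CpGs, against 12.1% of all CpGs treated alike. Of the 6 CpGs called on a single strand, the one of P2ry12 at 225 bases before the start was not called in the sum, and the other 5 were. For the CpG of Itgam at 832 bases before the start, the sum was 97.8% of 138 reads in E3 and 70.0% of 20 reads in CT.

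Promoter levels were compared by summing the reads of all sites within 1 kb of the start, where there were at least 5 sites, and adjusting Fisher's exact test over all 20169 such promoters. Of the 4 microglia genes that could be tested, 2 were called higher and 1 lower in E3. Over all promoters 9.67% were called in either direction. The promoter of P2ry12 had 60.5% of 228 reads methylated in E3 (54.1 to 66.6%) and 40.4% of 57 in CT (28.6 to 53.3%), with an adjusted p of 0.0273 by Fisher's exact test. That of Itgam had 89.6% of 548 reads in E3 and 78.5% of 107 in CT (adjusted p = 0.0142, Fisher's exact test). That of Cx3cr1 had 63.0% of 200 reads in E3 (56.1 to 69.4%) and 97.9% of 48 in CT (89.1 to 99.6%, adjusted p = 2.3e-06, Fisher's exact test). The promoter of Tmem119 had 5 methylated of 125 reads in E3 and 0 of 56 in CT and was not called (adjusted p = 0.499, Fisher's exact test). The 2 sites of Csf1r were too few for the test and had 81.8% of 33 reads in E3 and 75.0% of 12 in CT. Reads at neighbouring sites are often the same molecules, so a sum over sites counts them more than once and its p-value is too small. Each promoter site was also left out in turn, a comparison added after the values were seen. The call of P2ry12 was lost at 3 of its 5 sites, with 57.4% in E3 and 53.8% in CT without the site at 226 bases before the start (adjusted p = 0.854, Fisher's exact test), and with 57.4 and 48.7% without the one at 215 bases (adjusted p = 0.549, Fisher's exact test). The call of Itgam was lost at 3 of its 14 sites, with 88.2 and 82.5% without the site at 832 bases before the start (adjusted p = 0.260, Fisher's exact test). Without the site at 642 or at 713 bases after the start, the adjusted p stayed under 0.05 (0.0415 and 0.0369, Fisher's exact test). There the differences of 9.08 and 9.86 points missed only the limit of 10 points. Its 6 sites after the start summed to 88.6% of 201 reads in E3 and 70.4% of 54 in CT, and its 8 upstream sites to 90.2% of 347 and 86.8% of 53. The promoter of Cx3cr1 stayed called without any 1 of its 5 sites, with adjusted p-values of up to 0.00403 (Fisher's exact test). These close sites may share reads, so leaving 1 out need not remove the molecules behind the call. Staying called thus does not show that this difference is firmer than those of P2ry12 and Itgam. All measured promoter sites of Cx3cr1 were 925 to 968 bases before the start, so nothing was measured at the start itself. In CT 2 of the 4 tested promoters were at 50% or more, as were 22.5% of all promoters. The median of all promoters was 3.88% in both libraries.

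**Figure D3:**
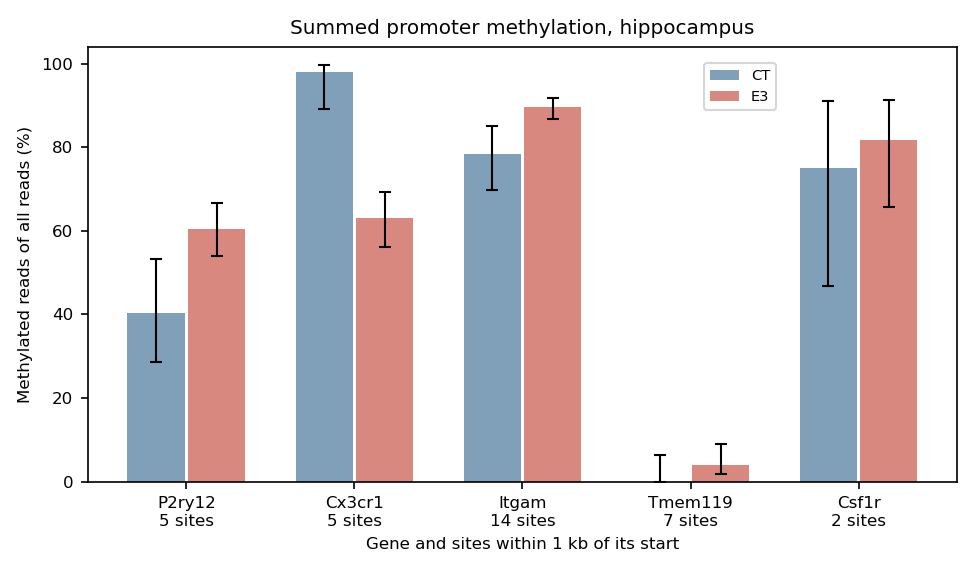
Share of methylated reads in percent, summed over all CpG sites within 1 kb of the transcription start of each gene in the hippocampus, with CT in blue, E3 in red and 95% Wilson intervals as black bars. P2ry12 and Itgam are higher and Cx3cr1 is lower in E3, and the intervals of Csf1r overlap. The calls of P2ry12 and Itgam, but not that of Cx3cr1, were lost when some single sites were left out. The sites of Cx3cr1 lie close together and may share reads, so its call could outlast any single site.

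Cytosines outside CpG, in the contexts CHG and CHH where H is A, C or T, are methylated in adult neurons at a low level. The microglia genes had 341 CHG and 990 CHH sites. At CHG sites 3 were called higher and 27 lower in E3, which is 8.80%, against 3.42% of all CHG sites (0.254% higher and 3.17% lower). At CHH sites 15 were higher and 87 lower, or 10.3%, against 3.68% of all CHH sites (0.319% higher and 3.36% lower). These shares rested on a few stretches. Of the 132 called sites, 105 lay in 4 runs, defined after the values were seen as at least 5 called sites on one strand and in one direction with gaps of up to 100 bases. In 3 of the runs CT had the high level. The runs of Trem2 and P2ry12 are shown on the minus strand with the called cytosines in capitals.
Trem2, chr17:48350969-48351147, minus strand: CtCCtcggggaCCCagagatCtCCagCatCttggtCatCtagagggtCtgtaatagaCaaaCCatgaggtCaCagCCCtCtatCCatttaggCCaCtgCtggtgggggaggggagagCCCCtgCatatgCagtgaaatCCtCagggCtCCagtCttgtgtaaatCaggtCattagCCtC
P2ry12, chr3:59248634-59248756, minus strand: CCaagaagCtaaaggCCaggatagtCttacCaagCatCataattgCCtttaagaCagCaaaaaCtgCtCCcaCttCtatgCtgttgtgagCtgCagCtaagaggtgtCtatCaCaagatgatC
In Trem2 the run covered 179 bases across a coding exon and an intron, and all 47 measured non-CpG cytosines in it were called. At 45 of them CT had 4 methylated of 6 reads. Summed over the run, CT had 67.0% methylated and E3 1.16%, with a median of 22 reads a site in E3. The 1 CpG site in the run was at 83.3% in CT and 100% in E3. In P2ry12 the run lay in an intron, 14229 to 14351 bases after the start. There 27 of 29 sites were called, and the sums were 40.4% in CT and 1.87% in E3. The opposite strand was at 6.67% in CT and 2.67% in E3.

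The other 2 runs were in coding exons of Itgam and went in opposite directions. On the plus strand, over 66 bases at 21108 to 21173 bases after the start, all 16 sites were called and the sums were 41.2% in CT and 4.69% in E3. At 15 of them CT had 4 methylated of 10 reads. On the minus strand, at 17665 to 17729 bases, 15 of 16 sites were called higher in E3, with 19.6% in E3 and 0% in CT, and E3 had 14 of 68 reads at 10 of them. The tables do not say which read a count came from, and the origin of these runs was not tested. Cx3cr1, Tmem119 and Csf1r had no such run. Of their 723 non-CpG sites, 1 was called higher and 10 lower.

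**Figure D4:**
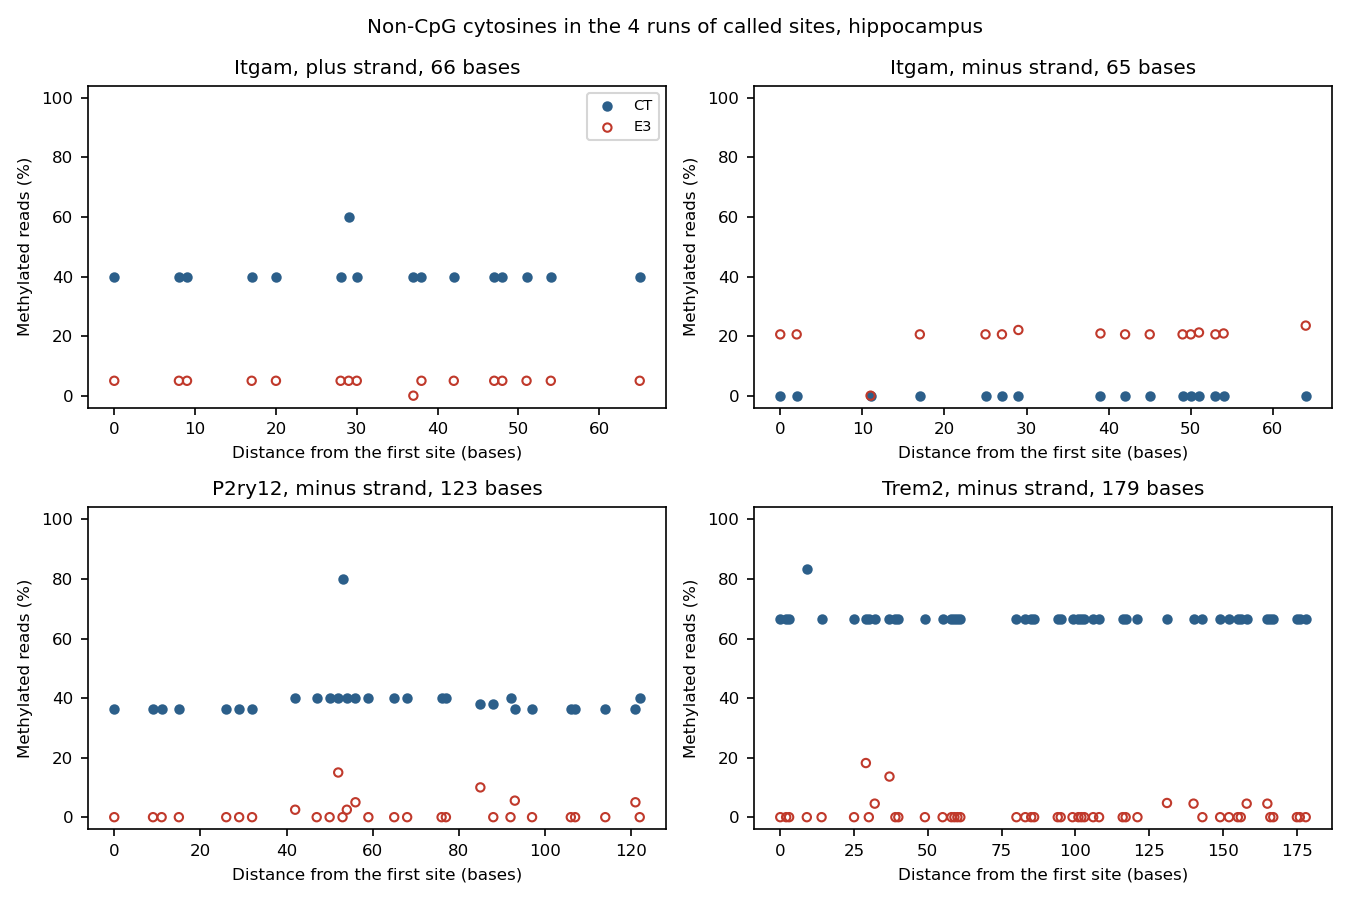
Methylated reads in percent at each measured non-CpG cytosine of the 4 runs in Itgam, P2ry12 and Trem2 in the hippocampus, against the distance in bases from the first called site. Filled blue points are CT and open red points E3. Each run has a nearly flat level in the library where it is high, at about 67% in CT for Trem2 and about 21% in E3 for the minus strand run of Itgam.

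In the frontal cortex the deposited tables list only sites that the authors called, with levels and no depth. A single called CpG belonged to the microglia genes, at position 61108664 of chromosome 18 in an intron of Csf1r, 3092 bases after the start. Its level was 52.9% in E3 and 0% in CT. This is 1 of 8 genes, or 12.5%, against 18.5% of all 21774 protein-coding genes named at a called CpG site. No called CHG or CHH site was named for any of the 8 genes, against 7.64 and 16.5% of protein-coding genes. The site was not among the measured sites of the hippocampus, where the nearest was 1013 bases away at 95.2% of 21 reads in E3 and 100% of 5 in CT. The 16 sites called in the hippocampus were not listed in the frontal cortex, where it is unknown whether they were covered. No value could thus be compared between the tissues.

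Genes of the same pathways were taken from lists of known microglial genes and of partners of the 8 genes. Of 11 ligands and signalling partners, all were measured, with 1119 sites, of which 68 were called higher and 65 lower. This is 11.9%, near the 11.0% of all CpG sites, and the genes named next are those with the most called sites. Syk, the kinase that acts after TREM2 and DAP12, had 18 higher and 11 lower sites of 198. Il34, a ligand of the CSF1 receptor made by neurons, had 14 higher and 13 lower of 98. Plcg2, a phospholipase that acts after TREM2, had 13 and 7 of 248, and Tgfb1, a cytokine that maintains microglia, had 3 and 14 of 148. Of the 9 promoters tested in this list, 2 were lower in E3 and none was higher, where 9.67% of all promoters were called. The promoter of Il34 had 24.9% of 273 reads methylated in E3 and 54.3% of 232 in CT (adjusted p = 6.0e-10, Fisher's exact test). That of Inpp5d, which encodes the phosphatase SHIP1 and is named here after its value was seen, had 76.3% of 76 reads and 93.2% of 88 (adjusted p = 0.0150, Fisher's exact test). Cx3cl1, the ligand of CX3CR1, had 12 sites, none of them called, and a promoter at 2.91% in E3 and 1.16% in CT.

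Among 23 other microglial and myeloid genes, 21 were measured, and 95 of 1558 sites were higher and 66 lower (10.3%). Runx1, a transcription factor of blood and yolk sac progenitors, had 28 higher and 29 lower sites of 566. Sall1, a factor that sets microglial identity, had 6 and 14 of 223. Irf8, a factor of myeloid development, had 11 and 4 of 108, and Mertk, a receptor for the uptake of dying cells, had 11 and 4 of 99. Of the 7 promoters tested in this list, none was called, against the same 9.67% of all promoters. The mean site level of this list was 41.8% in E3 and 40.6% in CT, lower than that of the 8 marker genes. Lists of markers of other cells gave shares of called sites on both sides of the background. These were 6.90% of 116 sites for border macrophages, 12.4% of 1548 for neurons, 15.7% of 594 for astrocytes, 11.9% of 419 for oligodendrocytes and 12.5% of 750 for endothelial cells. The median difference was 0 in each list and over all CpG sites.

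**Figure D5:**
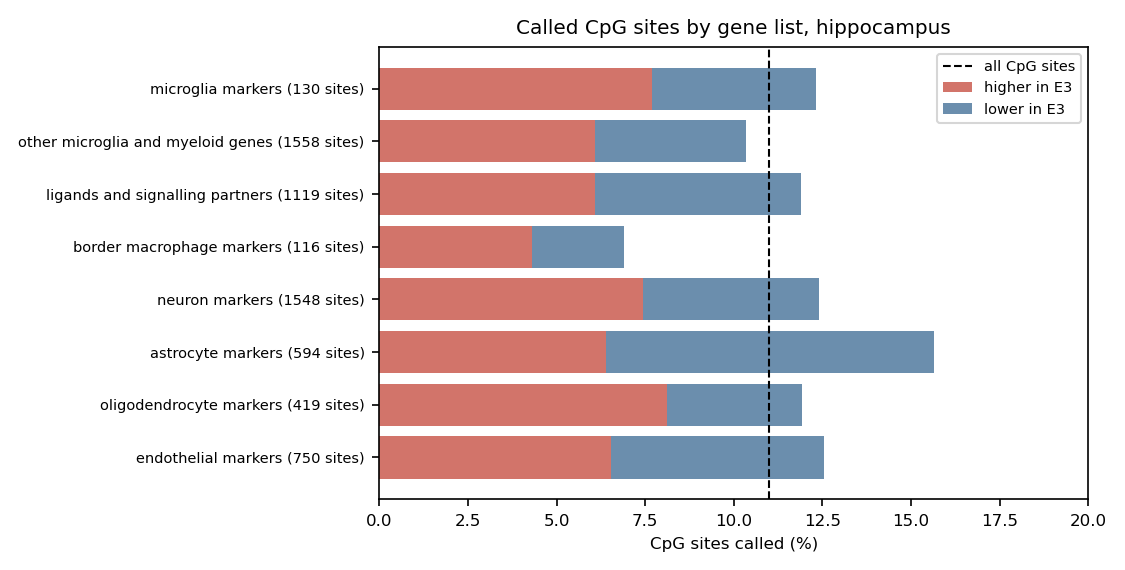
Share of measured hippocampus CpG sites that were called, in percent, for the microglia markers and 7 other gene lists, with sites higher in E3 in red and lower in blue. The dashed line is the share over all CpG sites, 11.0%, and the microglia markers lie near it at 12.3%.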

How the data were processed

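Methyl-MiniSeq libraries of the frontal cortex and the hippocampus were analysed, 1 per tissue and condition. Per the paper's methods, the authors trimmed the reads with TrimGalore and aligned them with Bismark to mm10, and MethylDackel extracted the methylation. For the hippocampus, the deposited tables give each cytosine's methylated fraction to 2 decimals and its total read count. Multiplying both and rounding gave back the methylated reads, and only sites with 5 or more reads in both libraries were kept. For the frontal cortex, the deposited tables give fractions at called sites only, so the depth is unknown. Columns of differences, p-values and classes of the authors' own comparison were not used.

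Gene windows, exons and sequences were from RefSeq GRCm38.p6. All 689316 CpG sites on the chromosomes of the measured genes fell on a CG of that assembly. Sites were tested by a 2-sided Fisher's exact test, with calls at 10 points or more of difference and p under 0.05, unadjusted. Promoter reads were summed over at least 5 sites, and p-values were adjusted by Benjamini-Hochberg over all promoters (numpy 2.4.6, pandas 2.3.3, numba 0.67.0, scipy 1.17.1 for Wilson intervals). The test was checked against simulated reads with known differences. These reads were independent, so the check cannot give the error rate where molecules are copied or counted more than once. Groups came from the sample labels. In the other gene lists, the genes with the most called sites were named, up to 4, leaving out genes tied across the last of these places. The 8 genes, the lists and the rules were chosen with earlier results of these data known. Alternatives were coverage minimums, larger differences, adjusted p-values, summed strands, thinned reads and other promoter windows.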

Additional observations from a re-analysis of the deposited data

How the results depend on the processing

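The count of called CpG sites of the microglia genes was limited by the depth of the CT library. Of the 130 sites, 33 had at least 10 reads in both libraries, and 6 of these were called, 3 higher and 3 lower. With at least 20 reads, 5 sites remained and 1 was called, lower, with 0 higher. With an adjusted p under 0.05, 9 sites were called, 6 higher and 3 lower. With reads thinned to 10 per site, 4 were called, 3 higher and 1 lower. The higher minimums left fewer sites to call. They may also favour sites where molecules were counted more than once, such as the P2ry12 sites with 18 CT reads beside one with 9. This was not tested. Shares over all CpG sites are not given for the coverage minimums or the thinned reads, so these counts have no background beside them. A difference of 25 points could change no count, since the smallest called difference was 33.3 points. With strands summed 11 CpGs were higher and 8 lower. With a promoter from 250 bases before to 50 after the start, only Tmem119 could be tested and 0 promoters were called, and with promoter sites of at least 10 reads no promoter had enough sites. With 2 kb each side, Csf1r was also called, lower, at 75.4% of 240 reads in E3 and 92.6% of 68 in CT, opposite to its 2 sites within 1 kb. Leaving out the most different site of each promoter, added after seeing the data, left 1 called promoter, Cx3cr1. Its sites lie close together and may share reads, so its call could outlast any 1 of them. Leaving out each site in turn ended the call of P2ry12 at 3 of 5 sites and of Itgam at 3 of 14. For the Itgam sites at 642 and 713 bases after the start, only the limit of 10 points was missed. The differences of P2ry12, Itgam and Cx3cr1 kept their sign with 2 kb windows, with starts of any transcript and as means of site levels. With starts of any transcript and as means of site levels, the sites of these genes were the same as in the main result. The 2 kb windows held the same 5 sites of P2ry12, 15 sites of Itgam against 14, and 7 of Cx3cr1 against 5. These settings thus mostly reused the same reads. The frontal cortex count stayed at 1 by position. A difference of 25 points could not change it, since its site differed by 52.9 points. An adjusted p in the frontal cortex was not run, since it would need the authors' own comparison. A minimum of 10 reads for non-CpG sites, chosen after seeing the data, left 98 CHG sites, of which 14 were called. It left 339 CHH sites, of which 59 were called. The shares over all CHG and CHH sites at this minimum are not given. No paired analysis was possible because each group had 1 library, and no library could be left out.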

Other observations

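In the lists of other cell types, the genes with the most called hippocampus CpG sites are given here. Many of them also had many measured sites, and 11.0% of all CpG sites were called. Rbfox3, the gene of the neuronal protein NeuN, had 71 sites higher and 40 lower in E3 of 745, and Syt1, of the synaptic vesicle protein synaptotagmin, 30 and 11 of 276. Tubb3 had 7 and 4 of 113, while Gad1, of an enzyme that makes GABA, had 2 higher and 7 lower of 140. Among astrocyte markers, the glutamate transporter genes Slc1a2 and Slc1a3 had 12 higher and 11 lower of 132 and 8 higher and 13 lower of 152. Sox9, a transcription factor of astrocytes, had 15 sites lower and 0 higher of 133, and Gja1 had 6 higher and 4 lower of 65. Among oligodendrocyte markers, Cnp, a myelin enzyme gene, had 11 higher and 1 lower of 83, Mobp 5 and 6 of 46, and Mog, a myelin surface protein gene, 8 and 0 of 25. Flt1 and Kdr, receptors for VEGF in endothelial cells, had 20 higher and 29 lower of 316 and 13 higher and 6 lower of 101. Cldn5, another endothelial marker, had 2 higher and 5 lower of 88. Mrc1, a marker of border macrophages, had 4 higher and 2 lower of 90. In the same list, Cd163 had 0 higher and 1 lower of 3, and Ms4a7 1 higher and 0 lower of 3.

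By promoter, 1 of 5 tested astrocyte markers was called, and none of 8 neuron, 5 oligodendrocyte, 3 endothelial and 2 border macrophage markers, where 9.67% of all promoters were called. No difference between the lists was tested. The astrocyte gene was Gfap, named after its value was seen, with 67.6% of 751 reads methylated in E3 and 56.4% of 163 in CT (adjusted p = 0.0304, Fisher's exact test with Benjamini-Hochberg adjustment). These tests compare 2 libraries.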
